A study of Danio rerio with 23 samples.

Results

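The genes described here are ptgdsb.1 (ENSDARG00000027088) and ptgdsb.2 (ENSDARG00000071626), neighbouring copies in the zebrafish genome of the gene for lipocalin-type prostaglandin D synthase. They are 2 of the 25281 genes in the count table and 2 of the 22503 genes that passed the filter on low counts. Both were chosen by identifier because their counts differed between light-damaged and control retinae, so that difference is given as a description without a test.

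The study exposed pigmented zebrafish larvae to intense light, a procedure named light-induced retinal damage (LIRD), and sequenced strand-specific poly(A)+ RNA of the retina beside control retinae (CTRL). The methods describe larvae of 4 dpf lit with 50000 lux for 3.5 h, a recovery of 48 h in the dark and pools of 50 retinae, and name a wild-type TU and a Tg(fli:gal4;UAS:mCherry) line without saying which line gave the RNA. The sample labels describe the same libraries otherwise, as adult fish lit with 15000 lux for 24 h and dissected right after the exposure, with no drug given to either group. The 17 libraries analysed here were 9 CTRL (replicates 1, 2, 3, 4, 5, 6, 8, 10 and 11) and 8 LIRD (replicates 1, 2, 4, 5, 6, 9, 10 and 11). The labels list 6 further samples, which have no column in the count table and were not analysed here. The study's methods state that outlier samples that did not group with their replicates were left out. Whether these 6 were left out on that ground is not stated for each. Such a choice can narrow the spread within a condition and part the conditions more clearly, and its effect was not tested. The sources used here do not say whether replicates came from separate clutches or exposures, so the spread between libraries may be partly technical.

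Prostaglandin synthesis starts when phospholipases free arachidonic acid from membranes. Cyclooxygenases turn it into prostaglandin H2, and a set of terminal synthases turns that into the individual prostaglandins. Lipocalin-type prostaglandin D synthase makes prostaglandin D2, which is known in mammals for promoting sleep and for its part in inflammation. The same protein is also secreted and carries small lipophilic molecules such as retinoids and bile pigments, and in mammals it is known from the meninges, the choroid plexus and the retinal pigment epithelium.

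Total counts per library lay between 70932504 and 150347385. The copies had between 4706 and 63786 counts per library, for which counting alone gives a relative SD of at most 1.46%, so nearly all of the spread below lies between libraries. By the order of the sample numbers in their names, the libraries were split here into 2 series. The first holds replicates 1 and 2 of each condition, whose numbers alternate between conditions. The second holds the other 13 libraries, with CTRL and LIRD numbered in separate runs. The series are read from this order alone, and whether they were separate batches is not known. CTRL 3 and 11 were much more alike than the other CTRL pairs (chi-square of 14.98 per gene against 73.9 or more), and so were LIRD 5 and 11 (11.97 against 109 or more). Both pairs still differed by more than sampling noise and were kept as separate libraries. The marker genes of rods, cones, bipolar cells and Müller glia were present in all libraries, beside keratins of the surface epithelium and genes of liver and exocrine pancreas.

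Both copies were higher in LIRD than in CTRL, and ptgdsb.1 differed more. Values are given as CPM, counts relative to the library total, scaled between libraries by TMM factors. In CTRL, ptgdsb.1 had a lowest level of 55.0, a median of 92.1 and a highest level of 140 CPM (mean 90.2 ± 28.7, SD, n = 9). In LIRD it had a lowest level of 259, a median of 327 and a highest level of 532 CPM (mean 345 ± 91.0, SD, n = 8). The conditions did not overlap in ptgdsb.1, and the lowest LIRD library lay 119 CPM above the highest CTRL library. The single highest value belonged to LIRD 6, above the next library, LIRD 4, at 388 CPM.

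For ptgdsb.2, the CTRL libraries ran from 74.9 over a median of 105 to 142 CPM (mean 103 ± 20.9, SD, n = 9). The LIRD libraries ran from 134 over a median of 187 to 306 CPM (mean 201 ± 61.9, SD, n = 8). Here 6 of 8 LIRD libraries lay above every CTRL library, while LIRD 5 and 11 lay just under CTRL 10, the highest control. The share of all genes with 6 of 8 was not counted, so nothing is read from this number. The highest ptgdsb.2 levels were in LIRD 1 and LIRD 2, and LIRD 6 had 179 CPM, under the median. In CTRL the lowest and the highest library, CTRL 6 and CTRL 10, were the same for both copies.

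**Figure D1:**
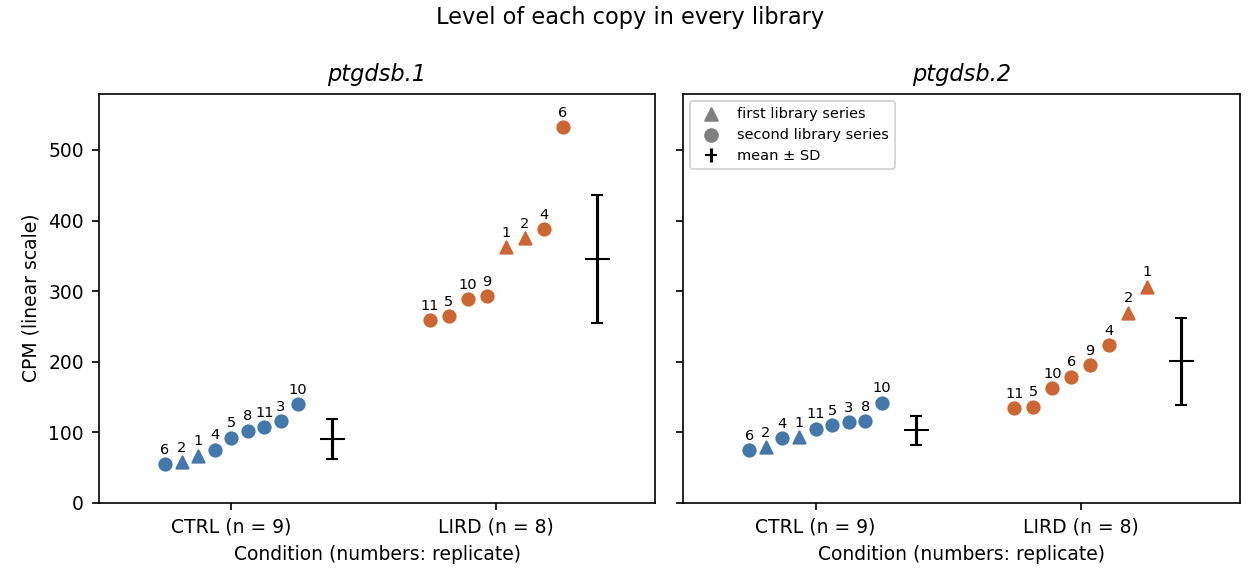
Level of ptgdsb.1 (left) and ptgdsb.2 (right) in each library in CPM on a linear axis, with CTRL in blue, LIRD in orange, replicate numbers above the points, triangles for the first library series, circles for the second and a bar for the mean ± SD. All 8 LIRD libraries lie above every CTRL library for ptgdsb.1, as in 0.0622% of all genes. For ptgdsb.2, 6 of 8 do so, and the share of all genes with 6 of 8 was not counted.

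The fitted log2 fold changes of LIRD against CTRL were 1.94 ± 0.19 (SE) for ptgdsb.1 and 0.96 ± 0.17 (SE) for ptgdsb.2. Across all 22503 genes tested with edgeR's quasi-likelihood test, 8 genes (0.0356%) were higher and 1 (0.00444%) was lower by more than 1.5 times with an FDR below 0.05. These limits, which the study's methods name, define a differentially expressed gene (DEG) here. Of all genes, 14 (0.0622%) had every LIRD library above every CTRL library. Because the copies were chosen on this contrast, nothing is read from their place among those genes. Leaving out LIRD 6 gave a log2 fold change of 1.82 for ptgdsb.1. In bulk retinae, more cells of a type and more RNA per cell cannot be told apart.

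The difference is also given within each library series. In the first series, ptgdsb.2 had 78.5 and 92.7 CPM in CTRL and 269 and 306 CPM in LIRD, a log2 fold change of 1.77 in that series alone. In the second series it was 107.7 CPM on average in CTRL and 172 CPM in LIRD, a log2 fold change of 0.67. For ptgdsb.1 the log2 fold changes were 2.58 in the first series and 1.78 in the second. Both copies were thus higher in LIRD within each series. The values were larger in the first, where 2 libraries stood for each condition. In one fit over both series the second minus the first gave -0.78 ± 0.42 (SE) for ptgdsb.1 and -1.08 ± 0.30 (SE) for ptgdsb.2. This fit splits the contrast on which the copies were chosen, so these values are a description without a test. They are read neither as equal nor as different effects in the series.

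The copies were also compared inside each library, where library size and scaling cancel out. The log2 ratio of ptgdsb.1 to ptgdsb.2 counts ran in CTRL from -0.47 in CTRL 1 over a median of -0.26 to 0.03 in CTRL 11 (mean -0.23 ± 0.20, SD, n = 9). In LIRD it ran from 0.24 in LIRD 1 over a median of 0.81 to 1.57 in LIRD 6 (mean 0.80 ± 0.40, SD, n = 8). The ratio did not overlap between the conditions, and its mean differed by 1.03 on the log2 scale. It is built from the counts by which the copies were chosen, so it was not tested between the conditions. How many other gene pairs part the conditions in this way was not counted. In CTRL, ptgdsb.1 held 46.1% ± 3.46 (SD, n = 9) of the counts of the pair, and in LIRD it held 63.3% ± 6.17 (SD, n = 8). The lengths of the copies were not set against each other, so a log2 ratio of 0 stands for equal counts and not for equal numbers of transcripts.

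The shift in the ratio was present in both library series, with a difference of 0.81 in the first and 1.11 in the second. Among the LIRD libraries the ratio itself was lowest in LIRD 1 and LIRD 2, the libraries of the first series, in which ptgdsb.2 was highest. The CTRL mean of the log2 ratio was also lower in the first series, at -0.45 against -0.16 in the second. Without LIRD 6 the difference between the conditions over both series was 0.92. The copies added up had a mean of 193 ± 49.1 CPM in CTRL (n = 9, between 130 and 282) and of 546 ± 127 CPM in LIRD (n = 8, between 393 and 711). These sums did not overlap either, but they rest on the same choice of genes and were not tested. Reads that match both copies may be dropped or assigned to the wrong copy by the counting. The sum is less open to a wrong assignment than the ratio, and how alike the transcripts are was not examined here.

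**Figure D2:**
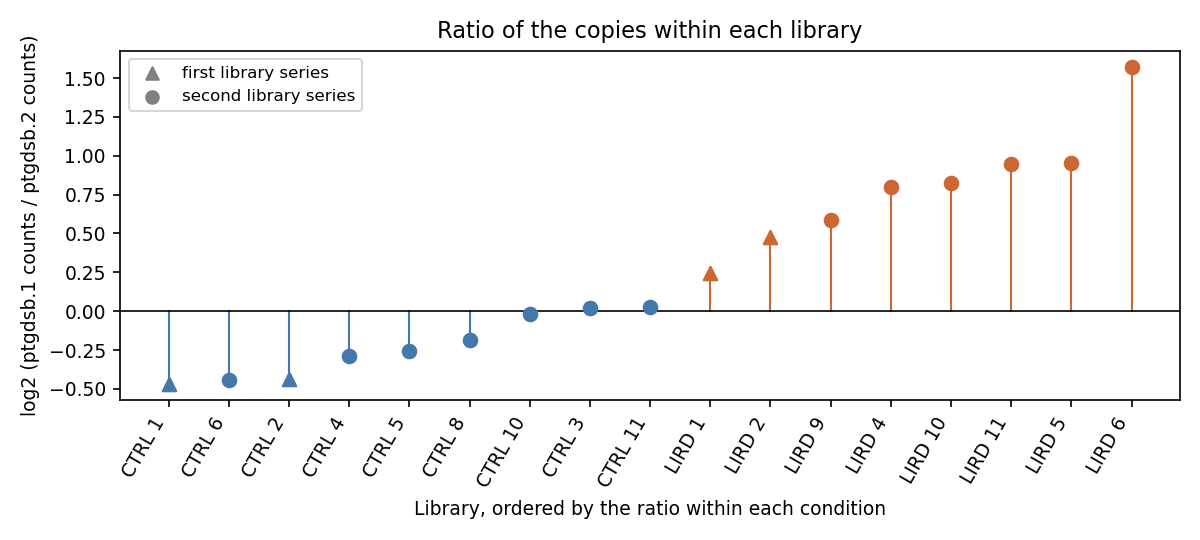
Log2 ratio of ptgdsb.1 to ptgdsb.2 counts in each library, ordered within CTRL (blue) and LIRD (orange), with triangles for the first and circles for the second library series and a line at equal counts. CTRL libraries lie between -0.47 and 0.03 and LIRD libraries between 0.24 and 1.57.

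Variation among the libraries of one condition was not used to choose the genes and could be tested. Among the CTRL libraries the copies went up and down together. Pearson's r of their log2 CPM was 0.966 (exact permutation p = 0.000105, 0.000209 after Benjamini-Hochberg adjustment over the 2 conditions, n = 9). Spearman's rho was 0.900 (exact permutation p = 0.00203, adjusted 0.00406). The relation held without CTRL 2 and CTRL 6, the libraries farthest from the median of ptgdsb.1 (r = 0.923, exact permutation p = 0.00476). It also held in the second series alone (r = 0.965, exact permutation p = 0.00198, n = 7) and with CTRL 3 and 11 averaged (r = 0.976, exact permutation p = 0.000298, n = 8). The first series held 2 CTRL libraries, too few for a value of its own. The test is against no relation at all, while many genes of these libraries moved together. How many other gene pairs reach such an r was not counted, and reads assigned to the wrong copy could also raise it.

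Among the LIRD libraries the relation did not pass the test, with r = 0.505 (exact permutation p = 0.200, n = 8) and rho = 0.667 (exact permutation p = 0.0831, adjusted 0.0831). This value moved most on leaving out LIRD 6. Without LIRD 6, in which ptgdsb.1 was far higher than its ptgdsb.2 level would give along the other libraries, r was 0.902 (exact permutation p = 0.0115, n = 7). Without LIRD 6 and LIRD 11, the libraries farthest from the median, r was 0.869 (exact permutation p = 0.0361, n = 6). In the second series alone r was 0.58 (exact permutation p = 0.226, n = 6). Whether the relation differed between CTRL and LIRD was not tested.

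**Figure D3:**
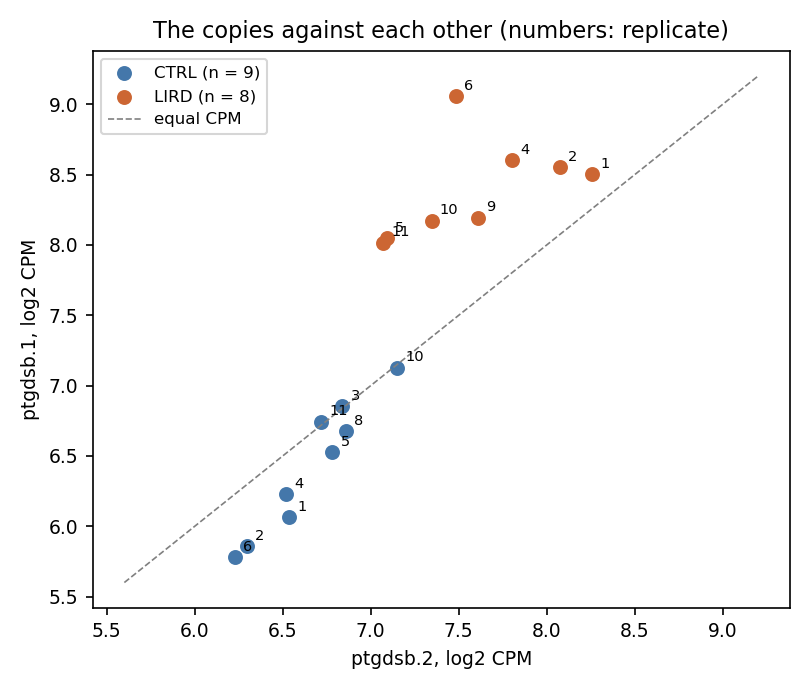
Log2 CPM of ptgdsb.1 against ptgdsb.2 in each library, with CTRL in blue, LIRD in orange, replicate numbers beside the points and a dashed line at equal CPM. The CTRL libraries lie along a line (r = 0.966), the LIRD libraries lie above the dashed line, and LIRD 6 stands above the others.

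The genes whose levels followed ptgdsb.1 most closely were found by correlating log2 CPM centred on the mean of each condition, over the 17 libraries and 19161 genes with a mean of at least 1 CPM. These correlations describe libraries that share their depth and tissue make-up and carry no test. The closest gene was soul5 (r = 0.864), a member of the heme-binding SOUL family. It was followed by BLVRA (r = 0.847), which encodes biliverdin reductase, and HES1 (r = 0.829), a transcriptional repressor known as a Notch target. Next came tspo (r = 0.796), which encodes a cholesterol- and porphyrin-binding protein of the outer mitochondrial membrane, and prxl2b (r = 0.748), whose mammalian counterpart is a prostaglandin F synthase. The other 5 were NCF1 (a subunit of the phagocyte NADPH oxidase), rbp7a (a retinol-binding protein), NFS1 (the cysteine desulfurase of iron-sulfur cluster assembly), her4.4 (a Notch target) and the protease gene prss60.3, with r between 0.722 and 0.739.

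All 10 correlated positively with ptgdsb.1 both within CTRL and within LIRD. Within CTRL, r ran from 0.654 for rbp7a to 0.932 for NFS1, and within LIRD from 0.270 for NFS1 to 0.905 for BLVRA. Without LIRD 6, 8 of the 10 stayed among the 100 closest genes, while rbp7a and prss60.3 fell to ranks 241 and 360. The gene with the lowest correlation was PLPPR3 (r = -0.757), followed by SMARCD3, zgc:64189, vopp1b and IGFBP5, with r between -0.742 and -0.734.

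These genes differed in how they compared between the conditions. Levels of soul5 were 30.1 to 67.7 CPM in CTRL (median 40.7) and 74.3 to 145 CPM in LIRD (median 114), without overlap, and soul5 was a DEG (log2 fold change 1.28 ± 0.18, FDR = 0.00685 by edgeR). In the second library series alone its FDR was 0.126. Levels of tspo were 17.7 to 28.1 CPM in CTRL (median 20.2) and 28.1 to 39.8 CPM in LIRD (median 34.1). Its conditions did not overlap either, by a narrow margin, but it missed the FDR threshold (log2 fold change 0.60 ± 0.12, FDR = 0.0867 by edgeR). DESeq2 called it (FDR = 0.00322). Among all genes tested, 0.0622% had every LIRD library above every CTRL library, as soul5 and tspo did. In contrast, HES1 had 26.8 to 53.3 CPM in CTRL and 31.7 to 52.8 CPM in LIRD, with a log2 fold change of -0.0049 ± 0.14, whose sign turned under other settings. The log2 fold change of her4.4 was 0.14 ± 0.21, and it was negative in the second series alone. Likeness within conditions and a difference between them were therefore found in different combinations among the closest genes.

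LIRD 6, the library with the highest ptgdsb.1, was also highest in soul5 (145 CPM), BLVRA (3.40 CPM), rbp7a (9.05 CPM) and prss60.3 (2.75 CPM). These genes were picked for following ptgdsb.1 over libraries that include LIRD 6, so their levels there are not independent of that choice. LIRD 6 had the lowest summed marker levels of all libraries for surface epithelium (7673 CPM), skeletal muscle (3408 CPM), Müller glia (2906 CPM), cones (13347 CPM) and pigment cells (452 CPM). The part of this make-up in the value of ptgdsb.1 was not tested.

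**Figure D4:**
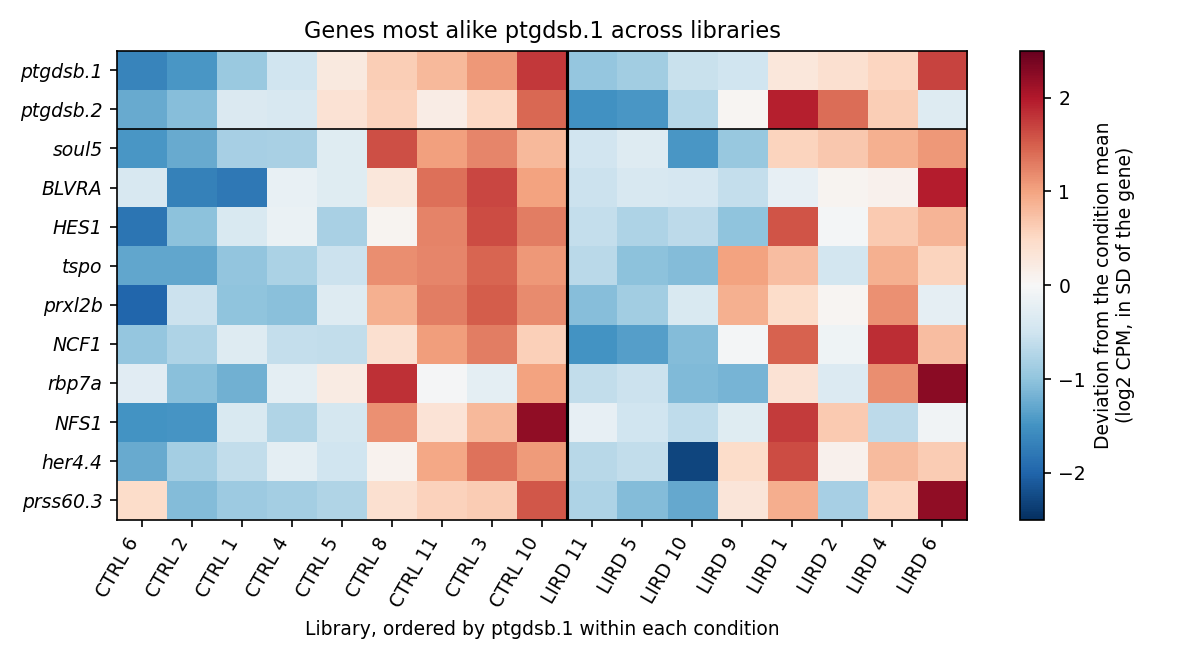
Deviation of log2 CPM from the mean of its condition, in SD of each gene, for the copies (top rows) and the 10 genes closest to ptgdsb.1, with libraries ordered by ptgdsb.1 within CTRL (left) and LIRD (right). Within CTRL the rows go from mostly blue (low) to mostly red (high) along with ptgdsb.1. Within LIRD soul5 and BLVRA follow it closely, whereas NFS1 (r = 0.270) and prxl2b (r = 0.39) do so weakly and lie near their condition mean in LIRD 6.

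The copies differed in how many genes followed them. For ptgdsb.1, 14 genes (0.0731% of those compared) had r over 0.7, and for ptgdsb.2 there were 2611 (13.6%). The count for ptgdsb.1 depended on LIRD 6. Without that library, her4.4 at rank 64 still had r = 0.736, and rbp7a at rank 241 had r = 0.667. The count for ptgdsb.2 was not taken without LIRD 6. The genes closest to ptgdsb.2 were HCCS (r = 0.938), which encodes the enzyme that attaches heme to cytochrome c, the mitochondrial carrier SLC25A16 (r = 0.927), the interferon-induced membrane protein ifitm1 (r = 0.920), C7H19orf12 (r = 0.914) and the copper chaperone cox17 of cytochrome oxidase assembly (r = 0.912). All of these were highest in CTRL 10 among the controls and in LIRD 1 among the LIRD libraries, as ptgdsb.2 was. They were picked for following ptgdsb.2 over these same libraries, so this is not independent of that choice. With one copy as the reference, ptgdsb.2 ranked 15 for ptgdsb.1, whereas ptgdsb.1 ranked 2647 for ptgdsb.2. The 50 genes closest to each copy shared 2 genes.

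Many genes of these libraries move along one common axis, the first principal component of the centred values without the copies, which held 49.7% of the variance. This comparison was chosen after the data were seen. Among CTRL libraries, ptgdsb.2 correlated with that axis at r = 0.728 (exact permutation p = 0.0258, 0.0515 adjusted over the 2 copies, n = 9) and rho = 0.767 (exact permutation p = 0.0214, adjusted 0.0428), and ptgdsb.1 at r = 0.598 (exact permutation p = 0.0897, n = 9) and rho = 0.550 (exact permutation p = 0.133). Without CTRL 8 and CTRL 10 these values were 0.305 and 0.154, so both rest on those libraries. The sign of the axis was set so that it correlated positively with ptgdsb.2. Over all libraries, 33.7% of genes had an absolute r with the axis at or above that of ptgdsb.2. For ptgdsb.1 this share was 82.0%, and the median absolute r of all genes was 0.68. The LIRD libraries were split by the sign of their score. In LIRD 1, 2, 4 and 9, on its positive side, ptgdsb.2 lay between 195 and 306 CPM, and in LIRD 5, 6, 10 and 11, on its negative side, between 134 and 179 CPM. For ptgdsb.1 these ranges overlapped, at 293 to 388 CPM and 259 to 532 CPM. How many of all genes were parted by this split was not counted.

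None of the other genes of prostaglandin metabolism passed the test. Of 51 genes found in the table, 50 were tested and 0 were DEGs by edgeR, against 0.04% of all genes. At an unadjusted p under 0.05, 3 were higher and 2 were lower, where 4.9% of all genes were higher and 2.74% lower. The median log2 fold change of the 50 genes was 0.08, and that of all genes was 0.02. DESeq2, which called 78 genes in all (0.315%), called 1 of them, prxl2b, and limma-voom called 0. In the first library series alone, where each condition had 2 libraries, 12 were called, beside 3891 of all 22618 genes tested there.

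At the first step, release of arachidonic acid, 2 of 13 phospholipase and lipase genes had an unadjusted p under 0.05, both higher, and 0 were DEGs. The lysosomal phospholipase PLA2G15 had 56.1 to 75.8 CPM in CTRL and 59.6 to 93.5 CPM in LIRD (log2 fold change 0.28 ± 0.09, FDR = 0.447 by edgeR). The cytosolic phospholipase pla2g4c had a log2 fold change of 1.13 ± 0.46 (FDR = 0.580 by edgeR) at levels that reached 1.43 CPM in LIRD 6 and stayed at or under 0.665 CPM elsewhere. Without LIRD 6 its log2 fold change was 0.61. The third by p was PLA2G12A, at 0.17 ± 0.11.

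The cyclooxygenases, which commit arachidonic acid to prostaglandins, overlapped between the conditions, with wider ranges in LIRD. The constitutive form ptgs1 had 7.33 to 9.66 CPM in CTRL and 6.05 to 10.9 CPM in LIRD, with a log2 fold change of 0.10 ± 0.11. The inducible form was present as genes that the reference names PTGS2. ENSDARG00000010276 had 12.3 to 23.9 CPM in CTRL and 11.1 to 32.6 CPM in LIRD (log2 fold change 0.19 ± 0.18). ENSDARG00000004539 had 18.4 to 33.4 CPM in CTRL and 13.7 to 40.6 CPM in LIRD (log2 fold change 0.05 ± 0.17). The latter log2 fold change was negative with limma-voom, with the replicate number as a block, in the second series alone, and without LIRD 2 or LIRD 9. Of these 3 genes, 0 had an unadjusted p under 0.05.

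All 13 other terminal synthases had a positive log2 fold change, between 0.13 and 0.63 with a median of 0.25, where 53.8% of all genes were positive. In the second library series alone 11 of 13 were positive, in the first alone 12, where TBXAS1 (ENSDARG00000002249) turned negative. Of the 13, 1 had an unadjusted p under 0.05, prxl2b, with 4.54 to 9.46 CPM in CTRL (median 6.43) and 8.68 to 13.8 CPM in LIRD (median 10.7). For prxl2b, 6 of 8 LIRD libraries lay above every CTRL library, with a log2 fold change of 0.63 ± 0.15 (FDR = 0.193 by edgeR, 0.0221 by DESeq2). How many of all genes had 6 of 8 was not counted. The third copy of prostaglandin D synthase, ptgdsa (ENSDARG00000069439), was present at far fewer counts than the ptgdsb pair, with 2.86 to 5.62 CPM in CTRL (median 3.80) and 2.303 to 8.24 CPM in LIRD (median 4.38). The conditions overlapped, with 2 LIRD libraries above and 2 below the CTRL range (log2 fold change 0.31 ± 0.22). The prostaglandin E synthase PTGES had a log2 fold change of 0.18 ± 0.09, the carbonyl reductase CBR1 of 0.25 ± 0.12, the prostacyclin synthase PTGIS of 0.33 ± 0.17 and the thromboxane synthase TBXAS1 of 0.13 ± 0.11.

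Among 11 receptor genes, 1 had an unadjusted p under 0.05. This was the prostaglandin E receptor PTGER3, with 0.501 to 0.913 CPM in CTRL and 0.348 to 0.832 CPM in LIRD (log2 fold change -0.42 ± 0.18, FDR = 0.614 by edgeR). The prostaglandin E receptors ptger1b and PTGER4 (ENSDARG00000035415) followed at 0.18 ± 0.19 and 0.11 ± 0.16. The symbols searched for the receptors of prostaglandin D2 and for the hematopoietic prostaglandin D synthase matched no gene name of the table, so no value is given for them.

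Of 10 genes for transport and inactivation, 8 had a negative log2 fold change and 1 an unadjusted p under 0.05. This was ptgr1.2, a prostaglandin reductase, with 2.95 to 6.18 CPM in CTRL (median 4.63) and 1.59 to 5.20 CPM in LIRD (median 2.79). In 7 of 8 LIRD libraries it lay below the CTRL median, a count not set against all genes (log2 fold change -0.65 ± 0.23, FDR = 0.491 by edgeR). The inactivating dehydrogenase HPGD had a log2 fold change of 0.21 ± 0.15, the prostaglandin transporter SLCO2A1 of -0.07 ± 0.10, and the related transporters named SLCO3A1 of -0.27 ± 0.15 (ENSDARG00000018726) and -0.16 ± 0.11 (ENSDARG00000068296).

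**Figure D5:**
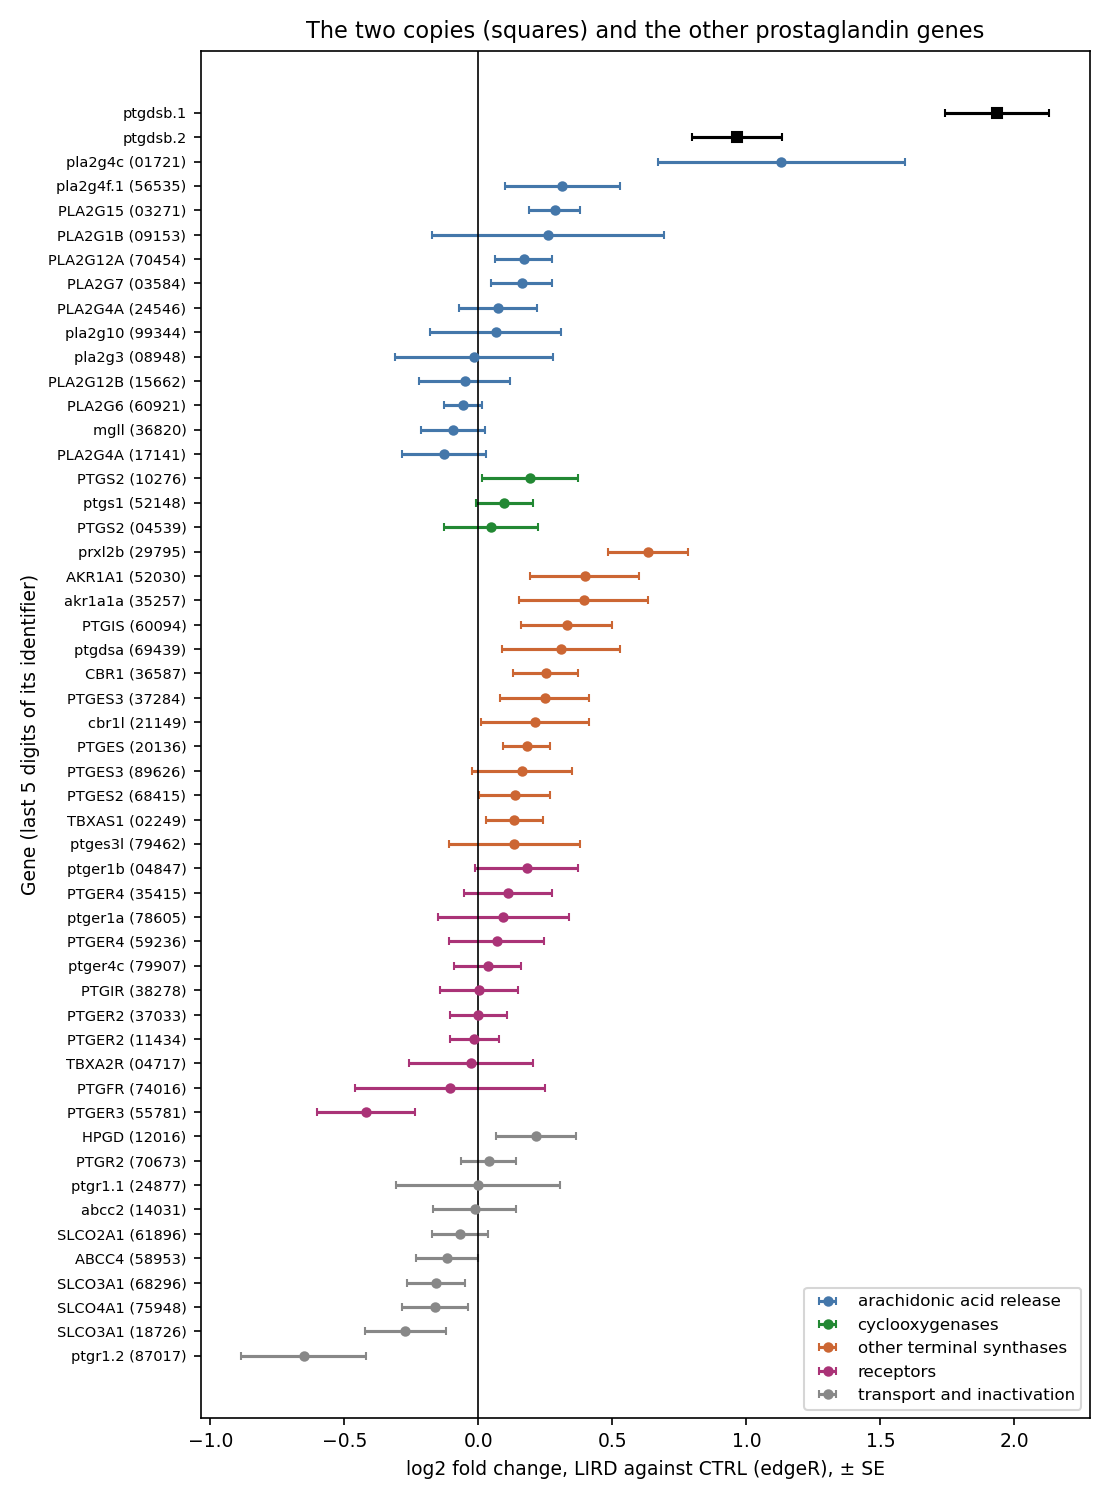
Log2 fold change of LIRD against CTRL ± SE from edgeR for the copies (black squares) and the 50 other prostaglandin genes tested, coloured by role, with the last digits of each identifier after the symbol. The copies lie at 1.94 and 0.96, the other terminal synthases between 0.13 and 0.63, and the receptors between -0.42 and 0.18.

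Dehydrated derivatives of prostaglandin D2 bind the nuclear receptor PPAR gamma in mammals. Of 11 PPAR, RXR and coactivator genes, 0 were DEGs by edgeR, DESeq2 or limma-voom and 0 had an unadjusted p under 0.05. The gene pparg had 7.83 to 10.2 CPM in CTRL and 5.14 to 10.8 CPM in LIRD (log2 fold change -0.14 ± 0.14). The 3 with the smallest p were rxrgb (0.17 ± 0.09), PPARD (ENSDARG00000044525, 0.22 ± 0.15) and rxrbb (0.08 ± 0.07).

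The copies belong to the lipocalins, secreted carriers of small lipophilic molecules. Of 26 other lipocalin and retinoid carrier genes, 0 were DEGs by edgeR, DESeq2 or limma-voom. In the first library series alone 14 were called, beside 3891 of all 22618 genes tested there. At an unadjusted p under 0.05, 10 of 26 were higher and 0 lower, where 4.9% of all genes were higher. The median log2 fold change of the list was 0.31, and 23 of 26 were positive, but 15 of 26 in the second library series alone. The apolipoprotein D gene APOD (ENSDARG00000060350) had 13.5 to 103 CPM in CTRL (median 42.1) and 58.6 to 339 CPM in LIRD (median 129), a log2 fold change of 1.53 ± 0.41 (FDR = 0.290 by edgeR). Transthyretin, the plasma carrier of thyroxine and retinol-binding protein, had a log2 fold change of 0.65 ± 0.19 (TTR, FDR = 0.354 by edgeR). All 8 LIRD libraries lay above the CTRL median in APOD and TTR, though each overlapped the controls. Both were named for a small p, and this count was not set against all genes.

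Light and clock genes were listed because the exposure is a light stimulus. Of 36, 0 were DEGs by edgeR and limma-voom and 1, nr1d4a, by DESeq2 (0.315% of all genes). At an unadjusted p under 0.05, 9 of 36 were higher and 10 lower, where 4.9% of all genes were higher and 2.74% lower. The Rev-erb family repressor nr1d4a had 8.86 to 29.9 CPM in CTRL (median 17.6) and 2.84 to 18.2 CPM in LIRD (median 6.76), a log2 fold change of -1.36 ± 0.33 (FDR = 0.216 by edgeR). NR1D1 and the PAR bZIP factor dbpb had log2 fold changes of -1.23 ± 0.39 and -1.10 ± 0.35, each with an FDR of 0.411 by edgeR. In NR1D1 and dbpb, the LIRD libraries all lay below the CTRL median, a count not set against all genes.

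In the annotation of GRCz12tu, the copies lie side by side on chromosome 24 with 0 genes between them. The 5 tested neighbours on either side are MTRR, CCT5, CMBL, KLHL15 and zfx beyond ptgdsb.2, and c8g, msrb2, ARMC3, PIP4K2A and MLLT10 beyond ptgdsb.1. Of these 10 genes, 0 were DEGs by edgeR, DESeq2 or limma-voom, against 0.04% of all genes by edgeR. At an unadjusted p under 0.05, 2 of 10 were higher and 0 lower, where 4.9% of all genes were higher. They were CMBL, a hydrolase gene (log2 fold change 0.47 ± 0.14, FDR = 0.352 by edgeR), and c8g, which encodes a lipocalin of the complement system and lies next to ptgdsb.1 (0.51 ± 0.18, FDR = 0.501 by edgeR). The log2 fold changes of all 10 neighbours lay between -0.15 and 0.51. The copies were chosen on this contrast, so nothing is read from their larger values beside the neighbours.

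Some marker lists of other cell types had higher sums in LIRD, though 0 of their genes were DEGs by edgeR, and their part in the difference of the copies was not tested. Of 11 red blood cell markers, 10 were tested. At an unadjusted p under 0.05, 7 of these were higher, where 4.9% of all genes were higher. DESeq2 called 4, against 0.315% of all genes. Of the 11, 10 had a higher mean in LIRD, and their summed level was 357 to 705 CPM in CTRL and 579 to 1785 CPM in LIRD. Of 23 microglia and macrophage markers, 21 were tested, and 12 of these were higher at an unadjusted p under 0.05. Several entries of this list, also among the 12, share the symbol MFAP4 or MPEG1, so the counts do not stand for separate markers. Of the 23, 22 had a higher mean in LIRD, with sums of 348 to 532 CPM in CTRL and 310 to 876 CPM in LIRD. Of 11 liver and exocrine pancreas markers, 5 were higher at that p and all 11 had a higher mean, with sums of 2962 to 6048 CPM in CTRL and 3936 to 12174 CPM in LIRD. Of 15 pigment epithelium and pigment cell markers, 9 had a higher mean in LIRD, near the 53.8% of all genes with a positive log2 fold change, with sums of 502 to 1028 CPM in CTRL and 452 to 1192 CPM in LIRD. None of these markers was at 0 in all libraries. A higher mean in LIRD was also found for 12 of 14 surface epithelium and 12 of 16 skeletal muscle markers, 0 of them higher at an unadjusted p under 0.05. It was found for 6 of 17 markers of periocular mesenchyme, fibroblast and meninges. For brain radial glia and choroid plexus it was 7 of 13.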

How the data were processed

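Per the labels and the methods, the authors used Trimmomatic, STAR (GRCz11) and strand-specific featureCounts on exons, and deposited the raw counts per gene, not normalized. TMM factors, log2 CPM (prior count of 2) and quasi-likelihood tests (robust) came from edgeR 4.0.16 (R 4.3.3), on 22503 genes kept by filterByExpr, with Benjamini-Hochberg adjustment. Standard errors are the log2 fold change over the root of F. Ratios used counts plus 0.5. Exact permutation tests, two-sided, and plots used Python 3.11.15, numpy 2.4.6, pandas 2.3.3 and matplotlib 3.10.9. Alternatives were DESeq2 1.42.0, limma-voom (limma 3.58.1), other scalings, filters and thresholds, library series, the replicate number as a block, near-identical libraries added up and each library left out. Members, lists and tests were chosen with earlier results of these data known. Symbols matched 23499 of 25281 identifiers (93.0%). They often follow human names, so listed symbols were also matched without a final copy letter or number. Genes named are the 3 of each list with the smallest p where none was called, fixed pathway genes, the 10 highest and 5 lowest in likeness to ptgdsb.1, the 5 highest for ptgdsb.2, and the neighbours. Neighbours follow RefSeq gene order in GRCz12tu, of which no coordinate was used. A planned search of promoter motifs was not run, and the result of 1 gene that this rule names is not reported here. Scripts were tested on simulated data.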

Additional observations from a re-analysis of the deposited data

Results flagged for a closer look

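In groups of 8 or 9 libraries, 8 of 124 sets of values held a library far from the others by Dixon's criterion, which flags about 1 set in 20 by chance. LIRD 6 was such a library in 4 of them, for ptgdsb.1 by a narrow margin (gap of 0.5275 of the range of CPM, limit 0.526). Its ptgdsb.1 level was 532 CPM (next 388), its pla2g4c level 1.43 CPM (next 0.665), its BLVRA level 3.40 CPM (next 2.28) and its prss60.3 level 2.75 CPM (next 1.67). Of these, BLVRA and prss60.3 were picked for following ptgdsb.1 over libraries that include LIRD 6, so they are not separate evidence on this library. CTRL 10 stood above the other controls in ptgdsa at 5.62 CPM (next 4.14) and in cox17 at 21.04 CPM (next 13.4). LIRD 9 was high in nr1d4a at 18.2 CPM (next 8.59) and low in MTRR at 8.68 CPM (next 10.4).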

How the results depend on the processing

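Both copies were higher in LIRD under all 27 alternatives tried for each. The log2 fold change of ptgdsb.1 was 2.58 and that of ptgdsb.2 1.77 in the first library series alone, and leaving out 1 library gave 1.82 to 2.04 and 0.85 to 1.04. The difference in their log2 ratio stayed between 0.81 and 1.11. The relation of the copies stayed between 0.953 and 0.981 in CTRL on leaving out 1 library, and between 0.375 and 0.902 in LIRD, where it passed the test only without LIRD 6.

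The count of DEGs, 9 in all, depended on the setting. It was 78 with DESeq2, 14 with at least 10 counts in every library, 17 with the library series as a covariate, 4 in the second series alone, 3891 in the first series alone, 5 with near-identical libraries added up, and 7 to 39 on leaving out 1 library (14 without CTRL 8, 39 without LIRD 10). The cause was not tested. With the replicate block it was 0 (1328 genes at an unadjusted p under 0.05), the log2 fold changes of the copies were 2.09 and 0.99, and soul5 was no longer called (1.52). Replicate numbers were not taken as pairs, since r exceeded 0.1 in 5 of 7 same-numbered pairs (between -0.65 and 0.48) and not in all, though 4 of 7 were closest to their own number. Of prostaglandin genes, 1 was called with DESeq2, 12 in the first series alone and 0 on leaving out any library.

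Among other named genes, 1564 of 1632 alternatives kept direction and call, 26 gained the call (22 in the first series alone, tspo also without LIRD 10), 2 lost it (soul5, with the block and at 1.102 in the second series alone) and 40 turned the sign. The first series alone gave -0.14 for rxrgb, -0.044 for ptger1b, -0.015 for TBXAS1 and 0.46 for HES1. The second alone gave -0.029 for PTGS2 (ENSDARG00000004539), 0.0055 for SLCO2A1, 0.049 for pparg, -0.094 for her4.4, -0.15 for HCCS, -0.053 for SLC25A16, -0.15 for ifitm1, -0.096 for C7H19orf12 and -0.12 for ARMC3. With limma-voom PTGS2, HES1 and ARMC3 were at -0.00558, 0.00812 and -0.00396, and with the block at -0.046, 0.12 and -0.047. HES1 was at 0.077 with near-identical libraries added up and ARMC3 at -0.020 with the series as a covariate. Leaving out 1 library gave ranges across 0 for PTGS2 (-0.078 to 0.14), HES1 (-0.078 to 0.060), HCCS (-0.019 to 0.15), SLC25A16 (-0.0022 to 0.071), msrb2 (-0.011 to 0.24) and ARMC3 (-0.066 to 0.055).

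Precision is set by 9 and 8 libraries, not by depth. The labels and the methods disagree on age and exposure, reads shared by the copies can be misassigned, and the time of day of collection is not given in the sources used here.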
